A study of Mus musculus with 2 samples.

Results

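Foxa2, Foxb1, Foxd3 and Foxp1 are 4 genes of the forkhead family of transcription factors, taken by their symbols from the 32285 genes of the deposited count tables, which list 44 forkhead genes in all. Their transcripts were counted in single cells of mouse gastruloids, balls of embryonic stem cells that break symmetry and elongate in a dish. Each was seeded with about 300 R1 embryonic stem cells, either wild type or with both Sp5 and Sp8, which encode transcription factors, mutated, in N2B27, a medium without serum. Both genotypes then received 3 µM CHIR, an inhibitor of the kinase GSK3 that activates Wnt signalling, for 12 hours from day 2, and aggregates were pooled for harvest at day 2.5. Each genotype has 1 library. The sources used here do not say which part of Sp5 or Sp8 was changed, or how many mutant clones were used.

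Forkhead proteins bind DNA through a winged-helix domain, and several of them can open closed chromatin. Foxa2 is a pioneer factor of the anterior primitive streak, the node, the notochord and the endoderm, and is also made by extraembryonic endoderm. Foxb1 marks the early neural plate and caudal epiblast and later parts of the brain and spinal cord. Foxd3 acts in pluripotent cells, as they pass from the naive to the primed state, and later in the neural crest. Foxp1 is a broadly expressed repressor that pairs with itself or with Foxp2 and Foxp4 through a leucine zipper.

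A cell was a barcode with at least 2500 UMIs, at least 1000 genes and at most 10% mitochondrial UMIs, a UMI being the tag by which 1 captured molecule is counted once. This kept 8707 cells with 97157331 UMIs in the library labelled wild type (WT) and 10587 cells with 97644169 UMIs in the library labelled double mutant (DM). The median cell held 10571 and 8637 UMIs, and 27 kept barcodes occurred in both libraries, against 13.6 for barcodes drawn at random. Sp5 and Sp8, the genes named in the label, went against it: Sp5 was at 109.1 CPM (the gene's UMIs per 1e6 UMIs of the library's kept cells) in the WT-labelled and 478.7 CPM in the DM-labelled library, and Sp8 at 20.8 and 40.1 CPM. Sequencing of transcript 3′ ends cannot separate an intact from an edited allele, so every direction here is between libraries as labelled, and none stands for a loss of these factors. Both libraries held pluripotency and early streak transcripts: Pou5f1, a core pluripotency factor, was at 656.2 and 679.0 CPM, and T, a primitive streak gene, at 38.8 and 50.7 CPM. With 1 library per genotype nothing was tested, and all intervals are 95% intervals of counting error alone (exact Poisson for levels, exact conditional for ratios, Clopper-Pearson for shares of cells). For a count of 0, the value it is said to allow is that of 3 counts.

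The members' positions are given in GENCODE M21 on GRCm38. Foxa2 (ENSMUSG00000037025) lies on the minus strand of chromosome 2 from 148042877 to 148046969. Foxb1 (ENSMUSG00000059246) lies on the minus strand of chromosome 9 from 69757710 to 69760940, with the antisense gene B230323A14Rik over part of it. Foxd3 (ENSMUSG00000067261) lies on chromosome 4, plus strand, from 99656299 to 99658622. Foxp1 (ENSMUSG00000030067) covers chromosome 6 from 98925338 to 99522721 on the minus strand, with smaller genes inside it. All 4 are protein-coding.

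Because the labels name Sp factors, which bind GC boxes, the 250 bases before each annotated start were searched for the GC box GGGCGG, read on both strands. RefSeq's promoter table (GRCm38.p6) holds 7 such windows for 3 members: 3 for Foxa2, 1 for Foxd3 and 3 for Foxp1. Of these 7 windows 4 held a GC box, and so did 32.7% of the 32851 windows of the table. The windows below are shown to contrast 2 starts of the member with the highest ratio between the libraries with the start of the member of lowest level. They run 5′ to 3′ on the gene's strand, overlap no exon of these genes in GENCODE M21, and have GC boxes in capitals.
Foxa2, outermost start, chr2:148046970-148047219, minus strand: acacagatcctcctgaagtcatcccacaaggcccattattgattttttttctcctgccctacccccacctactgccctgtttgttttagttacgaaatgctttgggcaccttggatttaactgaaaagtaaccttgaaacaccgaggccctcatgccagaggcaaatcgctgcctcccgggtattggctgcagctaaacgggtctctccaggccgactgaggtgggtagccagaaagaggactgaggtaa
Foxa2, inner start, chr2:148045949-148046198, minus strand: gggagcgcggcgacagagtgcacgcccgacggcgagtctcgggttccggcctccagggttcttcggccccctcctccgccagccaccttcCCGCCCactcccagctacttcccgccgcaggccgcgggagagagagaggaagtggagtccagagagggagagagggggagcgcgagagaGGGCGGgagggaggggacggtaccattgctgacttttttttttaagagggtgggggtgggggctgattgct
Foxd3, chr4:99656049-99656298, plus strand: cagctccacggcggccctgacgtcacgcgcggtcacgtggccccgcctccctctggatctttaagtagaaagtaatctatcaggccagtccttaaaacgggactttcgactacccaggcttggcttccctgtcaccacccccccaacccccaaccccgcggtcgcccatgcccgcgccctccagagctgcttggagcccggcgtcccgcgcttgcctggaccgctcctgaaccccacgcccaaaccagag
The outermost Foxa2 window and the Foxd3 window had no GC box, while the inner Foxa2 window had 2. Searched on both strands, the TCF/LEF motif CTTTGAT, the forkhead motif TGTTTAC and the Foxh1 motif TGTGNATT were in 0 of the 7 windows, and each was in 3.2% of all windows (3.21%, 3.17% and 3.18%). These are matches of letters in short windows and not measured binding.

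Foxa2, the streak and endoderm factor, was higher in the DM-labelled library. It had 222 UMIs, or 2.28 CPM (1.99 to 2.61), in the WT-labelled library and 665 UMIs, or 6.81 CPM (6.30 to 7.35), in the DM-labelled one. The log2 ratio of DM-labelled over WT-labelled was 1.57 (1.35 to 1.80), a 2.98-fold difference. Foxb1, the neural plate and caudal epiblast factor, was lower. It had 11573 UMIs, or 119.1 CPM (117.0 to 121.3), against 6836 UMIs, or 70.0 CPM (68.4 to 71.7), a log2 ratio of -0.77 (-0.81 to -0.72). Foxp1 had almost the same count in both, 4115 and 4116 UMIs, which is 42.4 CPM (41.1 to 43.7) and 42.2 CPM (40.9 to 43.5). Its log2 ratio was -0.01 (-0.07 to 0.06). Foxd3 had 59 UMIs, or 0.607 CPM (0.462 to 0.783), and 74 UMIs, or 0.758 CPM (0.595 to 0.951). With a log2 ratio of 0.32 (-0.19 to 0.84), a difference in Foxd3 was not detectable at this depth.

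These ratios can be read against all genes. Of the 12406 genes whose mean CPM reached 1, 5.7% were higher and 8.89% were lower in the DM-labelled library by a log2 ratio of at least 0.25, and the median log2 ratio was -0.03 with an SD across genes of 0.20. Of the 3 members over that minimum, Foxa2 was higher, Foxb1 was lower and Foxp1 was inside that limit. Foxd3, with a mean of 0.683 CPM, stayed under the minimum. Among the 12406 genes, 1 had a higher ratio than Foxa2. It was Sp5. A ratio lower than that of Foxb1 was found for 45 genes. Only counting error stands behind these places, so how far they would recur in other cultures is not known.

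Beside the library sums, the share of cells with at least 1 UMI was compared after thinning every cell at random to 2500 UMIs. This share also rises with the RNA in each cell. Neither measure can therefore tell more cells with the gene from more RNA in each of them. Foxa2 was found in 45 of 8707 WT-labelled cells, 0.517% (0.377 to 0.691), and in 136 of 10587 DM-labelled cells, 1.28% (1.08 to 1.52). Without thinning the shares were 1.73% and 3.52%. The upper end of the range differed too: cells with 4 or more Foxa2 UMIs numbered 9 in the WT-labelled and 43 in the DM-labelled library, with 6 and 11 UMIs as the highest count in a cell. Foxa2 was thus seldom detected in both libraries, and it was detected in more cells and at higher counts in the DM-labelled one.

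Foxb1 was found in 24.1% (23.2 to 25.0) of thinned WT-labelled cells and 14.7% (14.0 to 15.4) of thinned DM-labelled cells. Without thinning the shares were 59.2% and 37.9%. Foxp1 was found in 9.61% of thinned cells in both libraries (from 9.0 to 10.3 and from 9.05 to 10.2). Its unthinned shares, 34.7% and 30.1%, differed along with the depth of the cells. Foxd3 was found in 14 and 17 thinned cells, 0.161% in each library (0.088 to 0.270 and 0.094 to 0.257), and in 53 and 67 cells without thinning. No cell held more than 3 Foxd3 UMIs.

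Free RNA was measured in barcodes of 10 to 100 UMIs, which were taken to hold no cell. Foxa2 was at 1.52 and 2.75 CPM there, from 6 and 7 UMIs. That is 66.3% and 40.4% of its level in cells, with wide intervals of 0.556 to 3.30 and 1.11 to 5.67 CPM. Foxb1 was at 70.7 and 42.1 CPM, which is 59.4% and 60.1% of its level in cells. Foxp1 was at 22.2 and 15.7 CPM. Foxd3 had 0 of 3958240 UMIs there in the WT-labelled library, which allows up to 0.758 CPM. In the DM-labelled one it had 2 UMIs, or 0.787 CPM (0.0953 to 2.84), which is 104% of its level in cells. The free-RNA level of Foxb1 was lower in the DM-labelled library and that of Foxa2 higher, the same directions as in cells, though the 2 intervals of Foxa2 overlapped. A low share of cells with Foxa2, Foxb1 or Foxd3 can come from free RNA, whose part in the library ratios was not tested.

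To see which cells hold each gene, the cells of both libraries were clustered together with all forkhead genes, Sp5 and Sp8 left out of the genes used. Of 9 clusters, 7 had at least 100 cells in each library. Cluster 1 (1003 WT-labelled and 3280 DM-labelled cells) was primitive-streak-like, led by Mixl1, Gsc, Adamts9, Eomes, Fgf8 and T. Cluster 2 (2415 and 3452 cells) was led by Rhox5, Usp26 and Dppa2, cluster 3 (3222 and 2497) by Irx3, Gbx2 and Meis2, and cluster 4 (1311 and 508) by Nfib, Cdx2 and Pkdcc. These 3 were left without a cell type name. Cluster 5 (236 and 242) was neural-like, with Pou3f2 and Sox1 among its leading genes. Cluster 6 (326 and 360) had shallow cells, with a median of 3675 and 3232 UMIs, and stayed unnamed. Cluster 7 (140 and 147) was naive-pluripotent-like, led by Dppa3. The other two were a small group led by Aqp3, Tbx3 and Ddit3 (37 and 85 cells) and an extraembryonic-endoderm-like one led by Spink1 and Ttr (17 and 16). Genes that lead these clusters differ between the libraries themselves, so no difference in cluster size is read from the cell numbers.

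**Figure D1:**
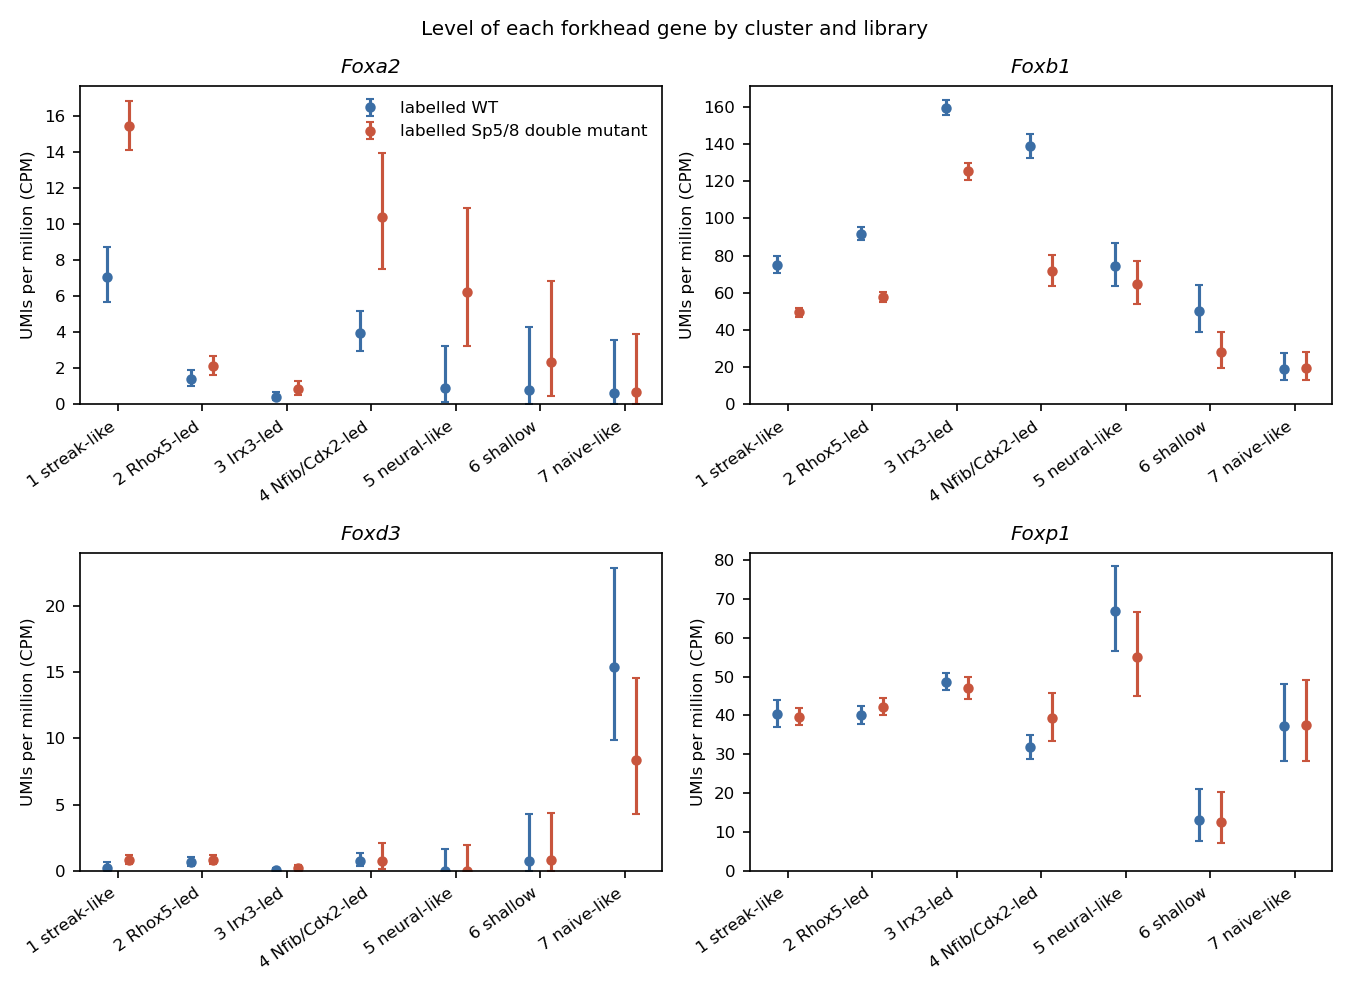
Level of each gene in CPM (vertical axis, from 0) in the 7 clusters with at least 100 cells per library, in the WT-labelled library (blue) and the DM-labelled library (red); points are summed UMIs of a cluster and bars are exact Poisson 95% intervals. Foxa2 peaks in cluster 1, Foxb1 in cluster 3, Foxd3 in cluster 7 and Foxp1 in cluster 5.

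Foxa2 was highest in the streak-like cluster 1 among those 7, at 7.09 CPM (5.70 to 8.72) in the WT-labelled and 15.4 CPM (14.1 to 16.8) in the DM-labelled library. This cluster held 11.5% of cells and 40.5% of the gene's UMIs in the first, and 31.0% of cells and 76.5% of the UMIs in the second. Cluster 4 came next, at 3.95 CPM (2.97 to 5.16) and 10.4 CPM (7.51 to 14.0). In the WT-labelled library the order went on with cluster 2 at 1.39 CPM (0.993 to 1.89) and cluster 3 at 0.412 CPM (0.230 to 0.679), and the levels of clusters 5 to 7 rested on 1 or 2 UMIs each. In the DM-labelled library the interval of the neural-like cluster, 6.23 CPM (3.22 to 10.9) from 12 UMIs, overlapped that of cluster 4, and clusters 2 and 3 followed at 2.12 and 0.841 CPM. Clusters 6 and 7 were left out of that order, with 3 UMIs (2.34 CPM) and 1 UMI (0.696 CPM). The few extraembryonic-endoderm-like cells had the highest level of all, 96.4 CPM (58.1 to 151) from 19 UMIs and 55.3 CPM (25.3 to 105) from 9 UMIs. In the small Ddit3-led cluster Foxa2 had 0 UMIs in both libraries, which allows up to 9.94 and 4.74 CPM.

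The Foxa2 difference was also present inside clusters. The log2 ratio was 1.12 (0.80 to 1.46) in the streak-like cluster, 1.40 (0.78 to 2.00) in cluster 4 and 0.60 (0.03 to 1.21) in cluster 2. In cluster 3 it was 1.02 with an interval that held 0 (-0.02 to 2.11), and in the neural-like cluster it was 2.53 (0.63 to 6.0), from 2 UMIs against 12. In the extraembryonic-endoderm-like cells it was -0.76 (-2.13 to 0.41). With each cluster given the same weight in both libraries the Foxa2 ratio was 1.04, against 1.57 as counted. Without the extraembryonic-endoderm-like cells it was 1.68.

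Foxb1 was highest in cluster 3, the one led by Irx3, Gbx2 and Meis2, at 159.5 CPM (155.4 to 163.7) in the WT-labelled and 125.3 CPM (120.7 to 130.0) in the DM-labelled library. In the WT-labelled library cluster 4 followed at 138.8 CPM, cluster 2 at 91.8 CPM, and then the streak-like cluster at 75.1 CPM (70.4 to 80.0) and the neural-like cluster at 74.4 CPM (63.5 to 86.6), whose intervals overlapped. Then came cluster 6 at 50.4 CPM and the naive-like cluster at 19.2 CPM. In the DM-labelled library cluster 4 at 71.7 CPM (63.7 to 80.3) and the neural-like cluster at 64.9 CPM (54.0 to 77.3) were not separated by their intervals, and nor were the neural-like cluster and cluster 2 at 57.8 CPM (55.2 to 60.5). The naive-like cluster was again low, at 19.5 CPM. In the extraembryonic-endoderm-like cells Foxb1 had 1 and 2 UMIs. After thinning, 0 of 17 and 1 of 16 of these cells had a Foxb1 UMI. A count of 0 of 17 cells allows a share of up to 17.6%, or 19.5% as a Clopper-Pearson limit, so this small cluster sets only a loose background for the gene. The naive-like cluster, with 5.00% (2.03 to 10.0) and 3.40% (1.11 to 7.76) of thinned cells, would set a closer one only if its cells make no Foxb1, which was not tested. Its cells had a median of 10300 and 9313 UMIs before they were thinned. The Foxb1 level there also depended on how the cluster was drawn. It was 26.6 and 17.7 CPM at a finer resolution, and 8.87 and 9.79 CPM when clusters were drawn again without likely doublets.

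Foxb1 was lower in the DM-labelled library in clusters 1, 2, 3, 4 and 6. The log2 ratio was -0.95 (-1.13 to -0.78) in cluster 4, -0.67 (-0.75 to -0.58) in cluster 2, -0.60 (-0.72 to -0.48) in the streak-like cluster and -0.35 (-0.41 to -0.28) in cluster 3, where the gene is highest. It was -0.83 (-1.47 to -0.23) in the shallow cluster 6. The intervals held 0 in the neural-like cluster, at -0.20 (-0.54 to 0.15), and in the naive-like cluster, at 0.02 (-0.78 to 0.81). The neural-like interval lay below 0 where the cluster was drawn with other cells. At a finer resolution, with 306 and 315 cells, the ratio was -0.27 (-0.54 to -0.01). Drawn again without likely doublets, with 291 and 267 cells, the cluster had a ratio of -0.44 (-0.76 to -0.13). With equal cluster weights the ratio was -0.53. The antisense gene B230323A14Rik had 168 and 92 UMIs, also fewer in the DM-labelled library, and how the counting used strand is not given in the sources used here.

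**Figure D2:**
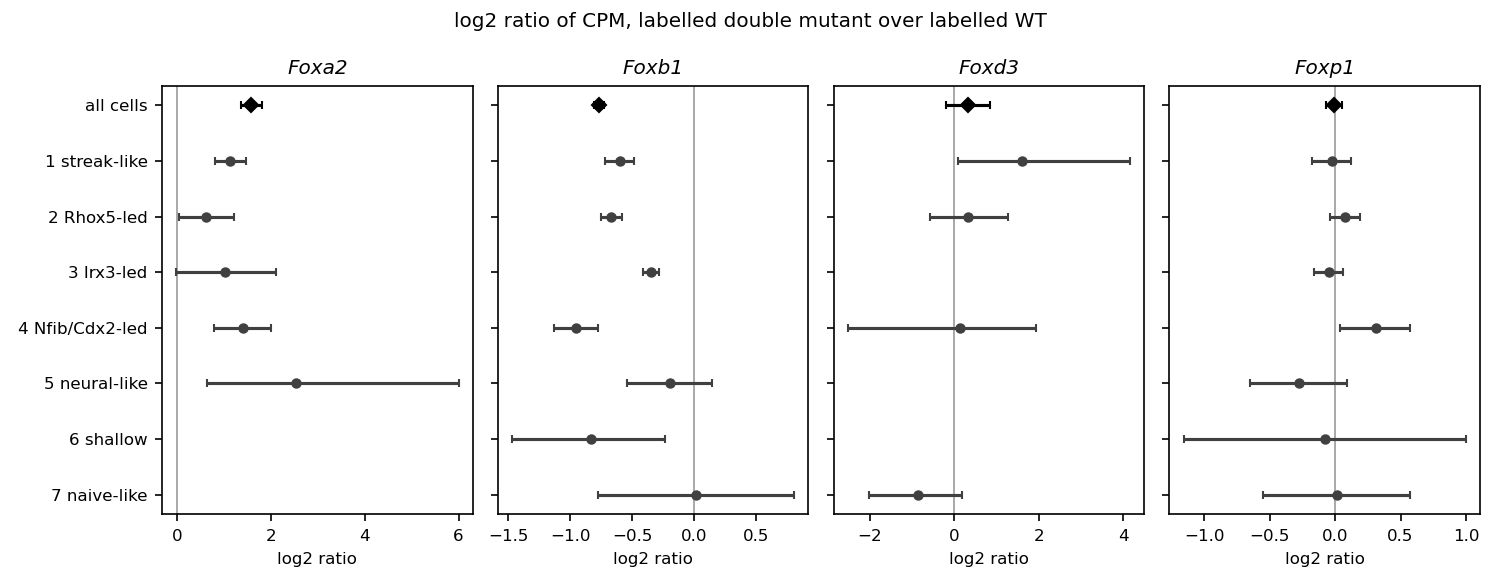
The log2 ratio of CPM, DM-labelled over WT-labelled (horizontal axis, with its own range for each gene), in all cells (diamonds) and in those of the 7 clusters with at least 100 cells per library where the gene had at least 10 UMIs over both libraries (circles); bars are exact conditional 95% intervals and the grey line marks 0. Foxa2 lies above 0 in all cells and in each cluster drawn, with an interval that reaches 0 in cluster 3, Foxb1 lies below 0 except in cluster 7, and Foxp1 in all cells is at -0.01.

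Foxd3 was highest in the naive-like cluster, at 15.4 CPM (9.86 to 22.9) from 24 UMIs in the WT-labelled and 8.35 CPM (4.32 to 14.6) from 12 UMIs in the DM-labelled library. That cluster held 1.61% and 1.39% of cells, and 40.7% and 16.2% of the gene's UMIs. The levels in the other large clusters reached at most 0.831 CPM, and in the neural-like cluster there were 0 UMIs in both libraries, which allows up to 1.34 and 1.56 CPM. Between the libraries, the log2 ratio in the naive-like cluster was -0.85 with an interval that held 0 (-2.02 to 0.17). In the streak-like cluster it was 1.60 (0.09 to 4.16), from 3 UMIs against 27. It did not hold in other clusterings. At a finer resolution it was 0.36 (-1.33 to 2.98) in the cluster led by Foxa2, Mixl1 and Gsc. In the streak-like cluster drawn again without likely doublets it was 0.06 (-1.23 to 1.43). That cluster held other cells, 1604 and 2345 of them, and no cluster of that clustering was led by Nfib and Cdx2. With likely doublets only taken out of cluster 1 as first drawn, 2 and 26 Foxd3 UMIs were left. The levels in the naive-like cluster depended on how it was drawn. Only 3 of its 140 and 4 of its 147 cells were scored as likely doublets, and these held 0 Foxd3 UMIs. All 24 and 12 UMIs were in cells that were kept. When the kept cells were clustered again, the borders moved. The cluster led by Rhox6, Rhox9 and Dppa3 then had 60 cells in each library. It had 9 Foxd3 UMIs (16.0 CPM) and 1 UMI (1.96 CPM), a ratio of -2.52 (-8.48 to -0.18). At a finer resolution the naive-like cluster had 154 and 157 cells, with 13.3 and 7.87 CPM.

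Foxp1 varied less between clusters than the other three. It was highest in the neural-like cluster, at 66.8 CPM (56.5 to 78.4) in the WT-labelled and 55.0 CPM (45.1 to 66.6) in the DM-labelled library. Cluster 3 followed at 48.7 CPM (46.5 to 51.0) and 47.1 CPM (44.3 to 50.0), where the interval in the DM-labelled library overlapped that of the neural-like cluster. The streak-like cluster (40.4 and 39.7 CPM), cluster 2 (40.2 and 42.3 CPM) and the naive-like cluster (37.2 and 37.6 CPM) had overlapping intervals within each library. The shallow cluster 6 had only 13.2 and 12.5 CPM. In the extraembryonic-endoderm-like cells Foxp1 had 0 and 2 UMIs, which for the WT-labelled library allows up to 15.2 CPM. In 6 of the 7 clusters the interval of the log2 ratio between the libraries held 0. The exception was cluster 4, at 31.8 CPM (28.9 to 34.9) against 39.3 CPM (33.5 to 45.9), a ratio of 0.31 (0.04 to 0.57). At a finer resolution the neural-like interval also lay clear of 0, at -0.37 (-0.71 to -0.04).

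Cluster 4 also stood apart in chromosome 6, where Foxp1 lies. For cells of 4000 or more UMIs, the share of UMIs on chromosome 6 was set against the median of such cells. In cluster 4, 76.8% of WT-labelled and 53.9% of DM-labelled cells were at or under 0.8 times the median. Over all clusters such low cells numbered 1793 of 8449 and 1865 of 10229. In them Foxp1 was at 28.6 CPM against 45.9 CPM in the other cells of the WT-labelled library, a log2 ratio of -0.68 (-0.82 to -0.55). In the DM-labelled library it was at 26.9 CPM against 45.7 CPM, a log2 ratio of -0.76 (-0.91 to -0.62). The split was set by the 376 other genes measured on chromosome 6, with Foxp1 left out of their sum. Their own median log2 ratio was -0.49 and -0.54, while that of 7230 genes on other chromosomes was 0.02 and 0.00. Without the low cells and those under 4000 UMIs, 301 WT-labelled and 231 DM-labelled cells of cluster 4 were left. In them the Foxp1 ratio was 0.17 (-0.24 to 0.56), with 40.4 and 45.4 CPM. This wider interval held both 0 and the 0.31 of the whole cluster. For the chromosomes of Foxa2, Foxb1 and Foxd3, at most 0.244% of cells were this low. On the high side of chromosome 9, where Foxb1 lies, 0.924% of WT-labelled and 13.4% of DM-labelled cells of cluster 4 were at or over 1.2 times the median. Over all clusters Foxb1 was at 28.6 CPM (18.5 to 42.2) in the 110 such DM-labelled cells, against 70.7 CPM in those between the limits. In the WT-labelled library it was at 77.0 CPM (44.8 to 123) in 33 cells, against 119.8 CPM. The part of these cells in the Foxb1 ratio of cluster 4 was not tested.

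**Figure D3:**
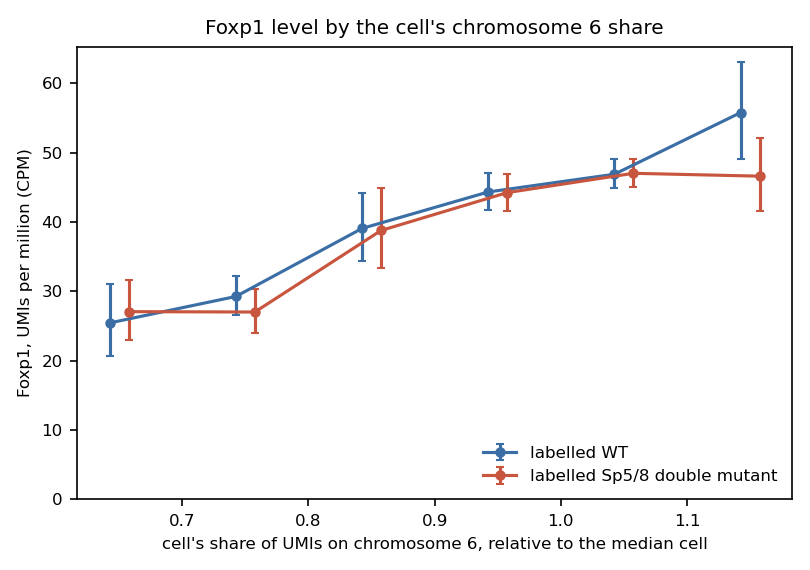
Foxp1 level in CPM (vertical axis, from 0) in cells binned by their share of UMIs on chromosome 6 relative to the median cell (horizontal axis, bins of width 0.1), in the WT-labelled (blue) and DM-labelled (red) libraries; bars are exact Poisson 95% intervals. Foxp1 is at 25.4 and 27.1 CPM in the lowest bin and at 46.9 and 47.0 CPM in the bin from 1 to 1.1 times the median, with overlapping intervals of the libraries in each bin.

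Clusters were drawn with genes that go along with the members, so the neighbours of each gene were also read directly, in cells thinned to 2500 UMIs. Cells with a Foxa2 UMI often held genes of the streak. Mixl1, an early mesendoderm factor, was found in 20.0% (9.58 to 34.6) of the 45 WT-labelled and 20.6% (14.1 to 28.4) of the 136 DM-labelled Foxa2 cells, against 2.46% and 3.30% of cells without Foxa2. Eomes, a T-box factor needed for the streak and endoderm, was found in 37.8% and 52.9%, against 16.6% and 31.9%. Fgf8, a growth factor of the streak, was found in 44.4% and 50.7%, against 15.9% and 25.8%. For T the shares were 15.6% (6.49 to 29.5) and 26.5% (19.3 to 34.7), against 7.79% and 10.6%, and the WT-labelled interval reached below the share of the other cells.

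Some Foxa2 cells held markers of endoderm. Dab2, an endocytic adaptor of extraembryonic endoderm, was found in 11.1% (3.7 to 24.1) and 3.68% (1.2 to 8.37) of them, against 1.2% and 1.02% of cells without Foxa2. Sox17, an endoderm factor, and Ttr, a product of extraembryonic endoderm, were each found in 3 of the 45 WT-labelled cells and in 1 of the 136 DM-labelled cells. The extraembryonic endoderm list of 11 genes summed to 48.9 and 44.8 CPM in the 2 libraries, with none of its genes at 0. The anterior streak and node list summed to 43.9 and 58.5 CPM, with 3 and 2 of its 10 genes at 0, among them the node and notochord genes Noto and Shh in both libraries. Definitive endoderm genes summed to 924.6 and 1211.6 CPM, which came largely from Epcam and Trh. In cells without a Foxa2 UMI after thinning, Epcam was at 459.8 and 433.7 CPM and Trh at 452.1 and 766.3 CPM. Sox17 was at only 0.844 and 0.676 CPM, Hhex at 7.06 and 5.90 CPM, and Cxcr4 at 1.28 and 1.42 CPM. No level of endoderm is read from this sum. The part of these cell types in the Foxa2 ratio was not tested beyond the value without the extraembryonic-endoderm-like cells.

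**Figure D4:**
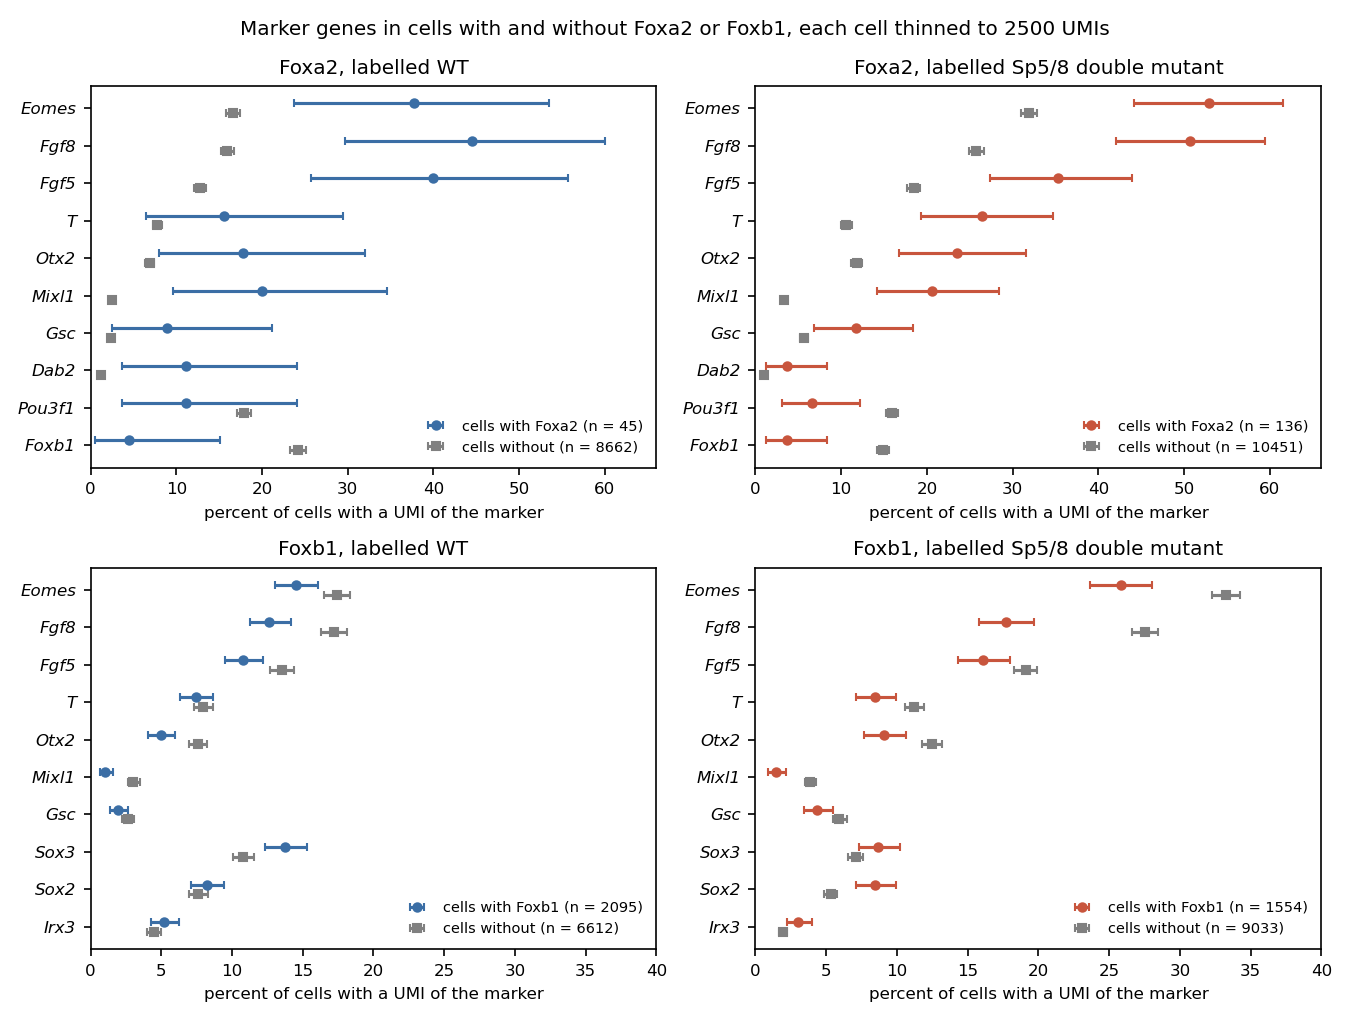
Percent of cells with a UMI of 10 genes (horizontal axis, from 0) in cells with Foxa2 (upper panels) or Foxb1 (lower panels), drawn as coloured circles, and in cells without it, drawn as grey squares, each cell thinned to 2500 UMIs; bars are Clopper-Pearson 95% intervals. In both libraries Mixl1, Eomes and Fgf8 have higher shares in Foxa2 cells than in cells without Foxa2, and lower shares in Foxb1 cells than in cells without Foxb1.

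Cells with a Foxb1 UMI leaned the other way. Mixl1 was found in 1.05% (0.66 to 1.59) of the 2095 WT-labelled and 1.42% (0.89 to 2.14) of the 1554 DM-labelled Foxb1 cells, against 3.02% and 3.89% of cells without Foxb1. Fgf8 was found in 12.6% and 17.7%, against 17.2% and 27.5%. Sox3, an early neural and epiblast factor, was found in 13.7% (12.3 to 15.3) and 8.69% (7.33 to 10.2), against 10.8% and 7.09%. In the DM-labelled library the Sox3 intervals of cells with and without Foxb1 overlapped. For Irx3, a homeobox gene of the neural plate, the shares were 5.20% (4.29 to 6.24) and 3.02% (2.23 to 4.0), against 4.46% and 1.93%, so that in the WT-labelled library the intervals overlapped. The 14 and 17 thinned cells with Foxd3 allow only counts. Otx2, an epiblast factor, was found in 4 of each, and the naive gene Dppa3 in 1 of each. Among cells with Foxp1, Eomes was found in 14.5% and 32.0%, against 17.0% and 32.2% of cells without it. For Fgf8 the shares were 14.1% (11.8 to 16.6) and 21.4% (18.9 to 24.1), against 16.3% (15.5 to 17.1) and 26.6% (25.7 to 27.5), so that the intervals overlapped in the WT-labelled library and not in the DM-labelled one.

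Foxa2 and Foxb1 were seldom seen in the same thinned cell. Both had a UMI in 2 WT-labelled and 5 DM-labelled cells, against 10.8 and 20.0 if the shares are multiplied, which is 0.18 (0.02 to 0.67) and 0.25 (0.08 to 0.58) of that number. Taking the products cluster by cluster gave 0.24 (0.03 to 0.85) and 0.32 (0.10 to 0.75). With all UMIs the ratios were 0.95 (0.76 to 1.18) and 0.63 (0.51 to 0.77), so in the WT-labelled library the lower number was seen only after thinning. Foxb1 and Foxp1 occurred together in 201 and 147 thinned cells, 1.00 (0.86 to 1.15) and 0.98 (0.83 to 1.16) times the product. The other 4 pairs rested on at most 14 cells each, and of their 8 ratios only that of Foxa2 with Foxd3 in the DM-labelled library, 2 cells, had an interval clear of 1 (1.11 to 33.1).

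The ratios were then taken within cells that held a given marker, with markers picked after their values were seen. In cells with a Mixl1 UMI, Foxa2 was at 11.3 CPM (7.60 to 16.1) in the WT-labelled and 44.2 CPM (37.6 to 51.6) in the DM-labelled library, a log2 ratio of 1.95 (1.40 to 2.59). In cells with an Eomes UMI it was at 4.91 and 12.0 CPM, a ratio of 1.28 (0.94 to 1.64), and in cells without one at 1.72 and 4.21 CPM, a ratio of 1.29 (0.99 to 1.60). In cells with Gsc, an organizer gene, it was at 5.18 and 22.3 CPM, and in cells with T at 5.48 and 16.2 CPM. Foxa2 was thus higher in the DM-labelled library among cells with each of these streak markers, and also among cells without them. Its ratio was 1.40 in cells without Mixl1. It was 1.40 without Gsc against 2.06 with it, and 1.49 without T against 1.55 with it. Foxb1 was at 162.5 and 112.0 CPM in cells with Irx3, a ratio of -0.53 (-0.76 to -0.32). It was at 145.2 and 93.1 CPM in cells with Sox3, and at 95.3 and 55.9 CPM in cells with Eomes. Over 7 such markers its ratio ran from -0.49 in cells with Sox2 to -0.81 in cells with T. In cells without the marker it ran from -0.69 for Eomes to -0.78 for Sox2.

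The genes most like each member were those with the highest ratio of their level in cells with the member over cells without it, taking the lower of the 2 libraries, among 7354 genes. For Foxa2 these were Mixl1 (2.44 on the log2 scale), the protease Adamts9 (1.76) and the basement membrane collagens Col4a1 (1.55) and Col4a2 (1.48). Gsc (1.53) and the fatty acid carrier Fabp3 (1.47) completed the 6. All but that of Gsc were the DM-labelled values. The WT-labelled values were 3.25 for Fabp3, 3.04 for Col4a2, 2.91 for Mixl1, 2.33 for Col4a1, 2.15 for Adamts9 and 1.53 for Gsc. Col4a1 is also on the extraembryonic endoderm list. In the extraembryonic-endoderm-like cluster lay 4 of the 45 WT-labelled and 2 of the 136 DM-labelled Foxa2 cells. Their part in these values was not tested. For Foxb1 the most like genes were the homeobox genes Gbx2 (0.67), Irx3 (0.49) and Irx5 (0.44) and the guidance molecule Rgma (0.48). The ephrin Efnb1 (0.37) and Jun (0.36) completed the 6. Of these, 5 of 6 for Foxa2 and 4 of 6 for Foxb1 came up again when cells were sorted by all UMIs. For Foxp1 the 6 genes were Jag1 (0.45), Chst15, Prr11, Vcan, Slc10a7 and Ercc8 (0.27), and for Foxd3 they were Pex5, Rbmxl2, Mlh3, Pycard, Mynn and Trim25. For both of these members 0 of 6 came up again with all UMIs. For Foxd3 the genes were then Dppa5a, Trap1a, Smim40, Sgk1, Utf1 and Otx2, with ratios from 1.44 to 1.14.

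Genes that work with Foxa2 in the streak and endoderm moved in both directions. Of 17 listed, 11 had a mean CPM of at least 1, and their median was 0.39. Of all genes at that minimum, 5.7% were higher and 8.89% were lower in the DM-labelled library past a log2 ratio of 0.25. In the list, 6 of the 11 were higher and 2 were lower. Gsc had the highest ratio, 1.18 (1.07 to 1.29), from 10.5 to 23.9 CPM. Eomes was at 91.2 and 185.6 CPM, a ratio of 1.03 (0.99 to 1.06), and Otx2 was at 31.1 and 56.6 CPM, a ratio of 0.86 (0.80 to 0.93). T (0.39) and Mixl1 (0.47) were higher by less than Foxa2. The 2 lower ones, named after their values were seen, were Lhx1 (-0.60) and the endoderm factor Hhex (-0.26). Nodal, the signal that induces the streak, was at -0.01. The close relatives Foxa1 and Foxa3 were at 0.391 and 0.297 CPM and at 1.63 and 1.92 CPM, with ratios of -0.39 (-1.15 to 0.34) and 0.24 (-0.08 to 0.55) whose intervals held 0. With equal cluster weights the median of the list was 0.16.

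Early neural and caudal epiblast genes that accompany Foxb1 were mostly lower. Of 14 listed, 13 passed the minimum, and their median was -0.61. Past 0.25, 0 of the 13 were higher and 9 were lower, against 5.7% and 8.89% of all genes at that minimum. Irx3 was at 19.8 and 8.17 CPM, a ratio of -1.27 (-1.39 to -1.15), Irx5 at 17.4 and 7.50 CPM, a ratio of -1.21 (-1.34 to -1.09), and Sox3 at 49.6 and 29.3 CPM, a ratio of -0.76 (-0.83 to -0.69). Zic2 did not share this, at 118.1 and 124.8 CPM and a ratio of 0.08. With equal cluster weights the median was -0.32. The neural marker list of 12 genes, which shares members with this one, summed to 334.5 and 301.8 CPM.

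The 13 genes listed with Foxd3 in pluripotent and epiblast cells all passed the minimum, and their median was 0.05. Past 0.25, 4 of the 13 were higher and 1 was lower, against 5.7% and 8.89% of all genes at that minimum. Fgf5, a primed epiblast signal, was at 62.1 and 91.3 CPM, a ratio of 0.56 (0.51 to 0.60), and Otx2 is given above. Nanog was at 116.2 and 128.8 CPM, a ratio of 0.15, and Pou5f1 was at 0.05. Of 11 genes of the Foxp subfamily and its corepressors, 10 passed, with a median of -0.03. Past 0.25, 1 of the 10 was higher and 2 were lower, against the same shares of all genes. These 3, named after their values were seen, were Foxp4 at 0.28 (0.14 to 0.42), Foxp2 at -0.39 (-0.79 to 0.01) and the deacetylase Hdac2 at -0.25 (-0.28 to -0.22).

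Of the other 40 forkhead genes, 38 had a UMI and 18 had a mean CPM of at least 1. Past 0.25, 1 of the 18 was higher and 5 were lower, against 5.7% and 8.89% of all genes at that minimum. The median of the 18 was -0.05. The 8 with a mean CPM of at least 10 were Foxj3, Foxk2, Foxm1, Foxn2, Foxn3, Foxo1, Foxo3 and Foxo4, and 0 of these 8 were past 0.25. Over all 7607 genes at that level, 3.13% were higher and 4.67% were lower past 0.25. Their ratios ran from -0.16 (-0.27 to -0.05) for Foxj3 to 0.19 (0.12 to 0.26) for Foxo1, a factor held back by insulin signalling. Foxm1, which drives genes of mitosis, was at 33.3 and 32.2 CPM, a ratio of -0.05. Foxh1, the partner of Smad proteins downstream of Nodal, was at 0.371 and 0.574 CPM, from 36 and 56 UMIs, with a ratio of 0.62 (0.00 to 1.28).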

How the data were processed

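The 2 libraries were made with the 10x Genomics 3′ chemistry. The counts deposited by the authors are unnormalized UMIs of each gene in each barcode. Per the labels, Cell Ranger 8.0.1 was used, while the submitters' processing notes list STARsolo, STAR 2.7.9a, Seurat 5.1.0 and mm10. Which of them wrote the tables is not given in the sources used here. The labels give 9238 and 11190 cells with medians of 5333 and 5398 genes, against 8707 and 10587 kept cells with 3275 and 2884 genes.

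Of 8772 and 10613 barcodes with enough UMIs, 1 and 0 had too few genes and 64 and 26 too many mitochondrial UMIs. Log2 ratios used a pseudocount of 0.5. Leiden clustering (Scanpy 1.11.5) used 2000 variable genes, 30 components, 15 neighbours and a resolution of 0.5, without cell cycle, mitochondrial, ribosomal or Y-linked genes or batch correction. A cluster got a class name when the class had at least 1 marker in the cluster's top 10 genes by fold and at least 3 markers that were 1.5-fold higher than elsewhere. Cluster 3 passed for the neural class and is called by its leading genes, since cluster 5 had more neural markers. Cluster 0 passed for the naive class by 1 leading marker, Tbx3, and is left unnamed, since the stress genes Ddit3 and Pmaip1 lead it too. Doublets were kept. As an alternative, the highest Scrublet-type scores were removed at 0.8% per 1000 cells (606 and 897 cells), as the score's own threshold marked only 2 and 1 cells. Ratios were tested on simulated Poisson counts of library sums, and thinning on made-up cells. These held no variation between cultures, so they check the calculation only. Members, gene lists and rules were chosen with earlier results of these data known. Named genes are the members, listed genes at 0.5 or more in log2 size with a mean CPM of at least 10, other forkhead genes at that level, the 6 genes most like each member, markers where shares are given, and a few listed genes singled out after their values were seen. A comparison of the members' protein sequences was not run.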

Additional observations from a re-analysis of the deposited data

How the results depend on the processing

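No paired analysis was possible because each genotype has 1 library. The values without the extraembryonic-endoderm-like cells, without the shallow cluster and by the share of UMIs on a member's own chromosome were chosen after seeing the data. Values outside the 95% counting interval of the reported value are given here, and the cause was not tested. The log2 ratios of the 4 genes stayed within that interval with TMM scaling (edgeR 4.0.16), DESeq2 1.42.0 size factors, a UMI floor of 4000, a mitochondrial limit of 5%, doublets removed, a pseudocount of 5 and each cell weighted alike. The median over all genes was -0.02, and 0.01 with TMM. Foxa2 was at 1.82 without cells low on chromosome 6 or 11, and at 1.04 with equal cluster weights. In clusters 1, 2, 3, 5, 6 and 7 it was at 1.12, 0.60, 1.02, 2.53, 1.23 and 0.12, the last 2 from at most 3 UMIs per library. Foxb1 was at -0.53 with equal cluster weights, at -0.60, -0.67, -0.35, -0.95, -0.20 and -0.83 in clusters 1 to 6, and changed sign in cluster 7 (0.021). Foxd3 was at 1.60, 1.54 and -0.85 in clusters 1, 3 and 7. Foxp1 was at 0.074, 0.31, -0.28 and -0.074 in clusters 2, 4, 5 and 6. The median of the Foxa2 partners was 0.16 with equal cluster weights and 0.67 with a minimum mean CPM of 10, that of the Foxb1 neighbours -0.32 with equal cluster weights, and that of the Foxd3 partners 0.11 without cells low on chromosome 6 or 11. Thinned to 5000 UMIs, the shares of cells were 0.904% and 2.28% for Foxa2, 40.2% and 26.3% for Foxb1, 0.321% in the DM-labelled library for Foxd3, and 18.6% and 18.3% for Foxp1. With no thinning they were 1.73% and 3.52%, 59.2% and 37.9%, 0.609% and 0.633%, and 34.7% and 30.1%. The other 102 values of the main comparisons stayed in the interval. Of the values of single markers, pairs and clusters, 78 stayed and 16 moved. Depth limits Foxd3 most, since its 59 and 74 UMIs leave both its ratio and its neighbours uncertain.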
